A study of Danio rerio with 8 samples.

Results

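Spliceosomal small nuclear RNAs (snRNAs) were examined in small RNA libraries of zebrafish larvae at 7 days postfertilization (dpf). The members are the 65 genes of biotype snRNA whose counts, summed over all 8 libraries, reached at least 10, out of 541 snRNA genes and 32520 genes in the table. They were chosen by that summed count, so their overall level is a description. The rule itself compares no groups, but it was written with earlier results of these data known. S+ larvae (4 libraries) came from crossings of males chronically stressed for 21 days with control females, and S- larvae (4 libraries) from crossings of undisturbed males with control females. All fish were wild type of the AB strain, the stress was applied to the fathers, each library was made from a pool of 50 larvae, and the study counted each crossing as a replicate. The comparison of S+ with S- asks whether paternal stress left a trace in the small RNA content of the progeny.

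The spliceosome removes introns from pre-mRNA, and its RNA components are the snRNAs, each packed with proteins into a small nuclear ribonucleoprotein. In the major spliceosome U1 recognises the 5′ splice site and U2 the branch point, while U4, U5 and U6 join as a preformed complex in which U4 is paired with U6 until activation. A minor spliceosome with U11, U12, U4atac, U6atac and the shared U5 removes a small class of introns. A full snRNA is longer than a typical miRNA, and a small RNA library mostly captures pieces of it. The counts are therefore called fragments here and are not a measure of intact snRNA. The study's methods head the library preparation as small RNA but name a ribosomal RNA depletion kit for stranded libraries, so how the inserts were sized is uncertain.

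The deposited table gives most snRNA genes only a clone name such as CR388102.3, so families were read from an Ensembl symbol table, which named 540 of the 541 genes. U1 had 35 members with 4704 counts in all, U2 had 6 members with 3680 counts, U4 had 3 with 804, U5 had 5 with 737 and U6 had 11 with 1341. U11, U12, U4atac and U6atac had 1 member each, with 37, 113, 22 and 151 counts. The remaining member, CR388102.3 (ENSDARG00000082127), was U7, which is not a spliceosomal RNA but guides the 3′ end processing of histone pre-mRNA. It was the single gene with the most counts, 2229, or 16.1% of the 13818 counts of all members. U1 and U2 together held 60.7% of these counts, and the 4 genes of U11, U12, U4atac and U6atac held 2.34%. Levels of different families are not per length and say nothing of how many molecules each had.

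Counts were concentrated in few copies. The 10 members with the most counts held 74.8% of the total, the median member had 37 counts, 37 members had fewer than 50, and 21 had at least 1 count in each library. At the minimum, 3 members had exactly 10 counts and 5 genes just outside it had 9. Of the 303 U6 genes in the table, 265 had no count, and 80.7% of the U6 counts fell on CABZ01071845.1. Of the 182 U1 genes, 83 had a count. The U1 genes CU695141.1, FP102120.2 and FP102120.3 were listed with identical counts in each library, 823 in all for each, and together held 52.5% of the U1 counts. A further 2 sets of 3 genes, 1 of U1 and 1 of U6, also had identical counts. Reads that fit several copies were divided among them, so single copies are uncertain and the sums over a family are less so.

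The libraries held between 3492945 and 4943297 counts, of which miRNA genes took 96.2% to 97.9%. All 17 tissue miRNA genes examined that the table lists (muscle, liver, neuron, blood, skin and gut) had counts in every library, and summed to 43223 to 44851 CPM in S+ libraries and 40720 to 48185 CPM in S- libraries. Among them 0 were called by limma and 6 had an unadjusted p below 0.05, against 12.4% of the 651 genes tested. The groups did not overlap in 5, against 7.68% of all genes tested. The 6 and the 5 both include dre-mir-133a-1, which passed the filter on low counts only through its S+ libraries. CPM here are counts for each 1000000 counts of the library, after scaling with TMM factors. SnRNA members made up 0.0343%, 0.0207%, 0.0335% and 0.0386% of the counts in S+ libraries 1 to 4, and 0.0323%, 0.117%, 0.0406% and 0.0227% in S- libraries 1 to 4. Library S- 2 stood apart, with a 95% Wilson interval from 0.114% to 0.121%, while the other S- libraries lay within the range of the S+ libraries or just outside it. It held 36.6% of all snRNA counts and 13.3% of all counts of the series. Its snRNA level was 3.28 times the median of the other 7 libraries. In the same library, lincRNA genes stood at 7.99 times and miscellaneous RNA genes at 2.24 times that median, snoRNA genes at 0.930 times and protein-coding genes at 1.45 times. Small Cajal body RNA (scaRNA) genes, with 215 counts in all, stood at 1.92 times and mitochondrial rRNA at 1.86 times. For rRNA genes it was 1.16 times and for mitochondrial tRNA 1.09 times. Values without S- 2 stand beside the results below where that library moves them. The Wilson interval covers counting error only. The 95% intervals of log2 fold changes below come from limma-voom and include the spread between libraries.

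U6atac was the one spliceosomal snRNA whose S+ libraries all lay above its S- libraries. This snRNA forms the catalytic core of the minor spliceosome, where it takes the place that U6 has in the major one, and in human cells it is known to be turned over quickly. Its single member, AL928952.1 (ENSDARG00000080562), had 18, 20, 34 and 47 counts in the S+ libraries, against 8, 7, 9 and 8 counts in the S- libraries. As CPM these were 4.43, 4.79, 6.51 and 13.6 in S+ larvae, and 2.18, 1.54, 2.28 and 2.44 in S- larvae. The S- libraries lay close together, while S+ 4 stood above the other S+ libraries, and the groups did not overlap. With 7 to 9 counts in each S- library the counting error is large, so their small spread is no sign of a well measured level. S+ larvae averaged 7.34 ± 4.29 CPM and S- larvae 2.11 ± 0.395 CPM (SD, n = 4 each).

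The log2 fold change of U6atac was 1.61 (standard error 0.505, 95% interval 0.48 to 2.74) in a limma-voom fit across all 651 genes that passed the filter on low counts. The unadjusted p was 0.00991 and the Benjamini-Hochberg adjusted p over all genes tested was 0.201, so the gene was not called. On log2 CPM, an exact permutation test (two-sided) of the 4 S+ against the 4 S- libraries gave p = 0.0286, the smallest it can give. With Benjamini-Hochberg adjustment over the 10 families given this permutation test, p was 0.286. By edgeR's quasi-likelihood test the change was 1.78 on the log2 scale, with adjusted p = 0.113. By DESeq2 it was 1.79, with adjusted p = 0.0297, past the threshold. With any 1 library left out, limma's log2 fold change lay between 1.32 (without S+ 4) and 1.78, and without S- 2 it was 1.43. The gene rests on 119 counts in S+ and 32 in S-, and the other U6atac gene in the table had no count. The filter asked for about 10 counts, scaled to library size, in at least 4 libraries. AL928952.1 reached this in the S+ libraries only, so it entered the fits through the group where it is high. Its p values from limma, edgeR and DESeq2 are therefore not free of the contrast.

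Some tissue miRNA genes separated the groups in the same libraries. The muscle gene dre-mir-133a-1 had 40, 71, 20 and 10 counts in S+ larvae, against 5 in each of the S- libraries, and the muscle gene dre-mir-206-1 was also higher in every S+ library (10805 to 12830 CPM, against 8981 to 9917 CPM in S-). The neuronal gene dre-mir-124-1 lay between 8.86 and 16.9 CPM in S+ larvae, against 23.8 to 33.2 CPM in S- larvae. The neuronal gene dre-mir-124-2 and the gut gene dre-mir-194a were likewise lower in every S+ library. The gene dre-mir-133a-1 passed the filter only through its S+ libraries, so its place among the genes tested depends on the contrast. Among the genes that separated the groups, dre-mir-133a-1 had 161 counts in all and dre-mir-124-1 had 690, against 30613 for dre-mir-124-2. Reads that fit several copies may be divided here as well, so these single copies are uncertain. The remaining 12 of the 17 overlapped, the other neuronal copies among them. The copy dre-mir-124-4 overlapped only narrowly, with up to 75.7 CPM in S+ larvae and at least 74.7 CPM in S- larvae. Its limma log2 fold change was -0.97, against -0.06 for dre-mir-124-3, 0.10 for dre-mir-124-5 and 0.07 for dre-mir-124-6. For the muscle gene dre-mir-1-2 it was 0.14. The part of tissue make-up in the U6atac values was not tested.

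Of the 651 genes tested, limma called 2 (0.307%), by an adjusted p under 0.05 together with a log2 change of more than 0.58 either way, and it called 0 of the 21 snRNA genes tested. The snRNA genes at an unadjusted p below 0.05 numbered 1 of 21, U6atac, while 12.4% of all tested genes were below it. EdgeR's quasi-likelihood test called 0 of the 21, against 0.307% of all genes, with 2 at an unadjusted p below 0.05, against 12.4%. DESeq2 called 1 of the 21, against 4.61% of all genes, so its 1 call is close to the share it called over all genes. It had 4 at an unadjusted p below 0.05, against 13.5%. No adjusted p from DESeq2 was available for the U1 genes CU695141.1, FP102120.2 and FP102120.3, so its call does not cover all 21. The groups did not overlap in 1 of the 21, U6atac, against 7.68% of all genes tested. U6atac passed the filter only through its S+ libraries, so its place among the 21 depends on its level there. Of all genes tested, 4.76% had each S+ library above each S- library, and 2.92% had the opposite order. Fitted log2 fold changes were below 0 for 17 of the 21 snRNA genes, with a median of -0.39, against 348 of the 651 genes (53.5%) and a median of -0.02 over all genes. Without library S- 2, 12 of the 21 were below 0, with a median of -0.07 against 0.01 over all genes. The other 44 members did not pass the filter and carry no fitted value.

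**Figure D1:**
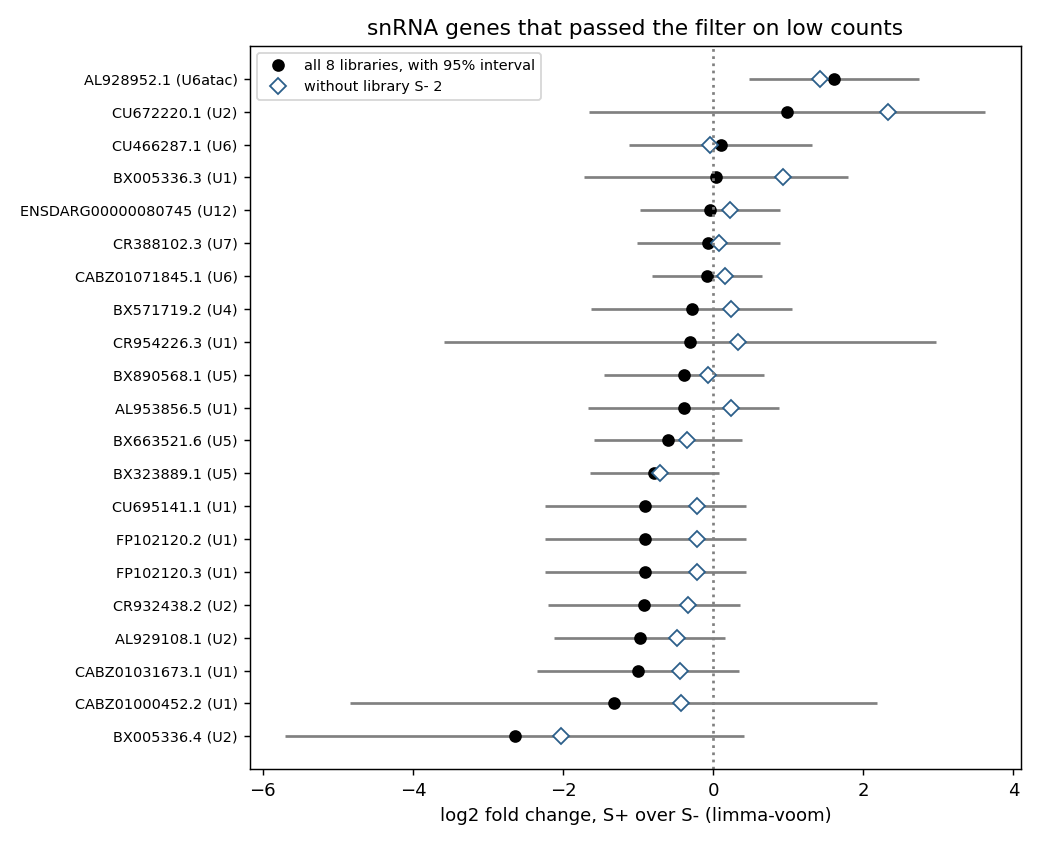
Log2 fold change of S+ over S- larvae from limma-voom (horizontal axis) for the 21 snRNA genes tested, by gene and family. Black points with lines are estimates from all 8 libraries with 95% intervals, and open diamonds are estimates without library S- 2. The intervals are not adjusted for the number of genes tested. That of AL928952.1 (U6atac), from 0.48 to 2.74, is the one that excludes 0, but its limma adjusted p was 0.201. This gene passed the filter only through its S+ libraries. The diamonds of the U1 and U2 genes lie to the right of their points.

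The major spliceosomal snRNAs U1 and U2 did not differ between the groups beyond the spread of the S- libraries. U1, the RNA that finds the 5′ splice site, summed to 67.2, 65.3, 95.4 and 107 CPM in S+ libraries 1 to 4, and to 97.6, 499.6, 109 and 70.5 CPM in S- libraries 1 to 4. The S+ libraries and 3 of the S- libraries covered nearly the same range, with S- 3 just above the highest S+ library. S- 2 was 5.24 times the median of the other 7. The means were 83.8 ± 20.9 CPM in S+ larvae and 194 ± 204 CPM in S- larvae (SD, n = 4 each). Without S- 2 the S- mean was 92.4 CPM.

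U2, the branch point RNA, summed to 58.3, 48.6, 68.4 and 106 CPM in S+ larvae, and to 78.3, 356, 106 and 59.5 CPM in S- larvae. Again S- 2 alone was high, at 5.20 times the median of the others. A fit of limma-voom on the same table with each family replaced by its sum gave log2 fold changes of -0.82 for U1 (95% interval -2.04 to 0.40) and -0.84 for U2 (95% interval -1.99 to 0.32), each with an adjusted p of 0.548, and -0.19 and -0.28 without S- 2. On log2 CPM of the sums, the differences were -0.77 for both, and without S- 2 they were -0.15 for U1 and -0.23 for U2. In the fit on sums 1 of 638 rows was called (0.157%) and 0 of the 8 families tested were. U6atac was the 1 family at an unadjusted p below 0.05, against 12.9% of all rows. Its row here also passed the filter only through the S+ libraries. EdgeR's quasi-likelihood test on the sums called 0 of the 8, against 0.157% of all rows, with 1 at an unadjusted p below 0.05, against 12.7%. DESeq2 called 1 of the 8, U6atac, against 4.7% of all rows, with 3 at an unadjusted p below 0.05, against 13.6%.

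**Figure D2:**
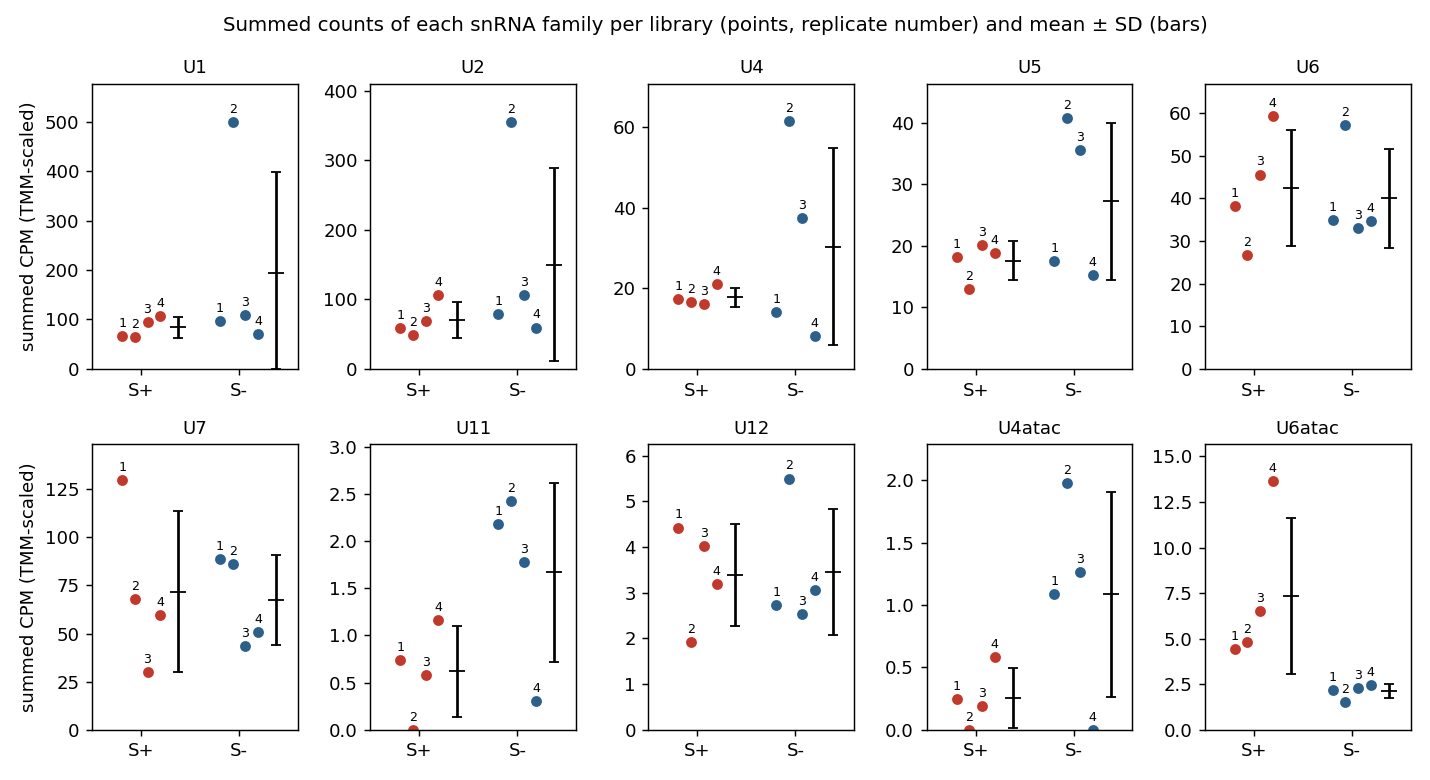
Summed CPM (vertical axes, linear and different for each panel) of each snRNA family in the S+ and S- libraries. Points are libraries with their replicate number, and bars are the mean ± SD of 4 libraries, cut at 0. S- 2 stands at 499.6 CPM for U1 and 356 CPM for U2, and the U6atac points of S+ (4.43 to 13.6 CPM) all lie above those of S- (1.54 to 2.44 CPM).

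Most copies of U1 and U2 had their highest value in library S- 2, namely 24 of 35 U1 members and 5 of 6 U2 members, although the summed count that chose them includes S- 2. Among members with at least 100 counts in the other 7 libraries, a choice that leaves S- 2 aside and was made after the data were seen, 6 of 6 U1 genes and 4 of 4 U2 genes were highest there. The ratio of S- 2 to the median of the other libraries ran from 4.48 to 8.07 among these U1 genes, of which 3 share their counts, and from 4.32 to 5.07 among the U2 genes. CU695141.1, FP102120.2 and FP102120.3, the U1 genes with identical counts, each had 41, 52, 67 and 66 counts in S+ larvae, against 68, 429, 59 and 41 in S- larvae. Outside S- 2 their S+ and S- counts overlapped. The U1 gene CR356223.4 had 4, 6, 0 and 1 counts in S+ larvae, against 4, 65, 23 and 0 in S- larvae, so S- 3 was also above the S+ libraries there. CU469093.1, a U1 gene with 24 counts in all, had 2, 1, 2 and 1 in S+ larvae, against 4, 6, 5 and 3 in S- larvae. It was the only member besides AL928952.1 whose groups did not overlap, it failed the filter, and it was singled out after its values were seen. The share of such genes among all genes with at least 10 summed counts is not given here, so this count of members has no background.

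The U2 genes CR932438.2 and AL929108.1 carried most of the U2 counts. CR932438.2 had 93, 56, 151 and 126 counts in S+ larvae, against 140, 625, 139 and 63 in S- larvae. AL929108.1 had 106, 56, 142 and 92 in S+ larvae, against 124, 528, 168 and 66 in S- larvae. Their fold changes on the log2 scale were -0.92 (limma adjusted p = 0.545) and -0.98 (limma adjusted p = 0.447), and -0.34 and -0.48 without S- 2. Another U2 gene, BX005336.4, listed as rnu2, had 0, 62, 11 and 99 counts in S+ larvae, against 19, 291, 73 and 57 in S- larvae. Its 0 in S+ 1 allows up to 0.738 CPM. Its fitted log2 fold change of -2.64 had a 95% interval from -5.70 to 0.41 and an adjusted p of 0.447 from limma, and was -2.03 without S- 2. This was the lowest fitted value of the 21 snRNA genes, and its S+ libraries alone ranged from 0 to 99 counts. The remaining tested U2 gene, CU672220.1, went the other way. It had 17, 25, 32 and 38 counts in S+ larvae, against 0, 138, 27 and 6 in S- larvae. Its log2 fold change was 0.99 (limma adjusted p = 0.743), and 2.33 without S- 2.

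**Figure D3:**
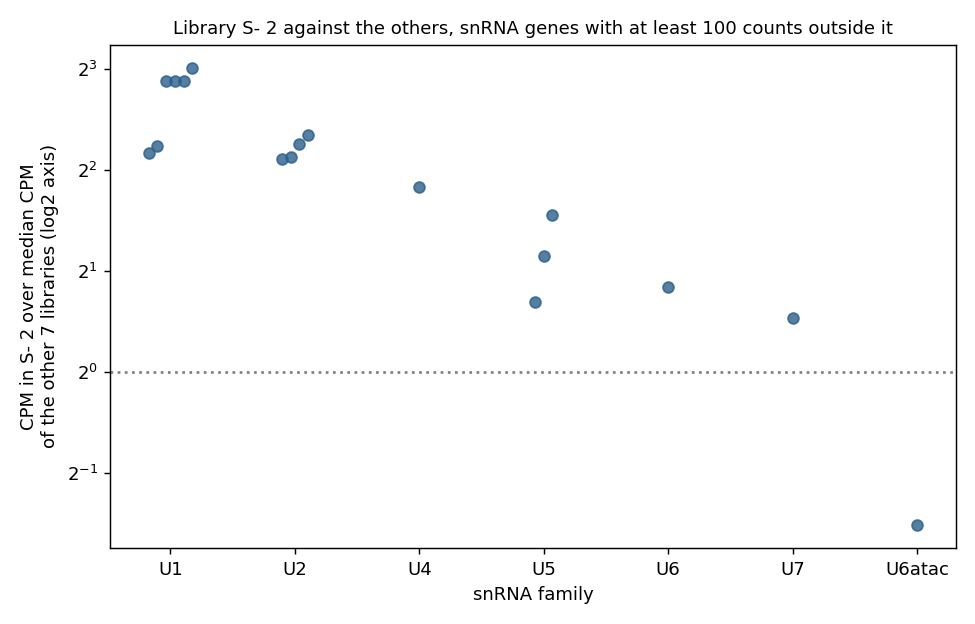
CPM in library S- 2 divided by the median CPM of the other 7 libraries (vertical axis, log2 scale) for the 17 snRNA genes with at least 100 counts in those 7 libraries, by family. Each point is a gene and the dotted line marks a ratio of 1. U1 genes lie between 4.48 and 8.07 and U2 genes between 4.32 and 5.07, while U6atac lies at 0.348.

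In U4 and U5, S- 3 lay above all S+ libraries as S- 2 did, and by a wider margin than S- 3 had in U1. U4, which holds U6 inactive until the spliceosome is activated, summed to 17.5, 16.5, 16.1 and 21.2 CPM over the S+ libraries, and to 14.2, 61.6, 37.5 and 8.24 CPM in S- larvae. The S+ libraries were close to each other and lay inside the wide S- range. BX571719.2 held 89.8% of the U4 counts, with a log2 fold change of -0.29 (limma adjusted p = 0.859) and 0.23 without S- 2. U5, which holds the exon ends together and serves both spliceosomes, summed to 18.2, 12.9, 20.1 and 18.9 CPM in S+ larvae, and to 17.5, 40.7, 35.5 and 15.3 CPM in S- larvae. The highest U5 gene, BX890568.1, had 30, 26, 55 and 37 counts in S+ larvae, against 20, 98, 73 and 21 in S- larvae. BX323889.1 had 9, 9, 21 and 11 counts in S+ larvae, against 13, 26, 28 and 13 in S- larvae. Its log2 fold change was -0.78 (limma adjusted p = 0.426), and -0.71 without S- 2. In the fit on sums the log2 fold change was -0.42 for U4 (95% interval -1.66 to 0.82) and -0.55 for U5 (95% interval -1.35 to 0.25). Without S- 2 these were 0.059 for U4 and -0.33 for U5.

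U6, the catalytic RNA of the major spliceosome and, unlike U1 and U2, a product of RNA polymerase III, had the narrowest interval of the 8 families. It summed to 38.1, 26.8, 45.6 and 59.2 CPM in S+ larvae, and to 34.9, 57.2, 32.9 and 34.8 CPM in S- larvae. S+ 4 and S- 2 were the highest and the groups overlapped. The log2 fold change was 0.04 in the fit on sums, with a 95% interval from -0.59 to 0.67 and an adjusted p of 0.955, and 0.22 without S- 2. CABZ01071845.1, its main gene, had 133, 78, 177 and 155 counts in S+ larvae, against 108, 240, 106 and 85 in S- larvae. For U6 the value in S- 2 was 1.64 times the median of the other libraries.

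Of the other minor spliceosomal snRNAs, U12 was counted in every library and did not separate the groups, while U11 and U4atac were near the limit of detection. U12, the branch point RNA of minor introns, is listed as ENSDARG00000080745 with no symbol and had 18, 8, 21 and 11 counts in S+ larvae, against 10, 25, 10 and 10 in S- larvae. Its groups overlapped, with a log2 fold change of -0.06 in the fit on sums (95% interval -0.98 to 0.86) and 0.20 without S- 2. U11 (snrnau11), which recognises the 5′ splice site of minor introns, had 3, 0, 3 and 4 counts in S+ larvae, against 8, 11, 7 and 1 in S- larvae. U4atac (FO704721.2), the pairing partner of U6atac, had 1, 0, 1 and 2 counts in S+ larvae, against 4, 9, 5 and 0 in S- larvae. S- 4 lay inside the S+ range for both, neither passed the filter, and a count of 0 allows up to 0.718 CPM in S+ 2 and 0.915 CPM in S- 4. On log2 CPM the differences were -1.41 for U11 (exact permutation p = 0.229) and -1.36 for U4atac (exact permutation p = 0.257). Without S- 2 they were -1.15 and -0.90. No difference in U11 or U4atac was detectable at this depth. Summed over U11, U12, U4atac and U6atac the difference was 0.42 (exact permutation p = 0.314), and the groups overlapped.

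Set against the other snRNAs of the same library, U6atac also separated the groups, which needs no scaling between libraries. For each U6 count there were 0.116, 0.179, 0.143 and 0.230 U6atac counts in S+ larvae, against 0.0625, 0.0269, 0.0692 and 0.0702 in S- larvae. For each U12 count there were 1.00, 2.50, 1.62 and 4.27 U6atac counts in S+ larvae, against 0.800, 0.280, 0.900 and 0.800 in S- larvae. Neither ratio overlapped between the groups. Both use the U6atac counts given above and are no separate evidence, and they were chosen after the values had been seen. As a share of all snRNA counts, U6atac made up 1.31% to 3.49% in S+ larvae and 0.139% to 0.998% in S- larvae. The lowest S- value of this share and of both ratios was that of S- 2. Without S- 2 the S- values ran from 0.612% to 0.998% for the share. They ran from 0.0625 to 0.0702 for the ratio to U6 and from 0.800 to 0.900 for the ratio to U12. The last lies close to the 1.00 of S+ 1.

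**Figure D4:**
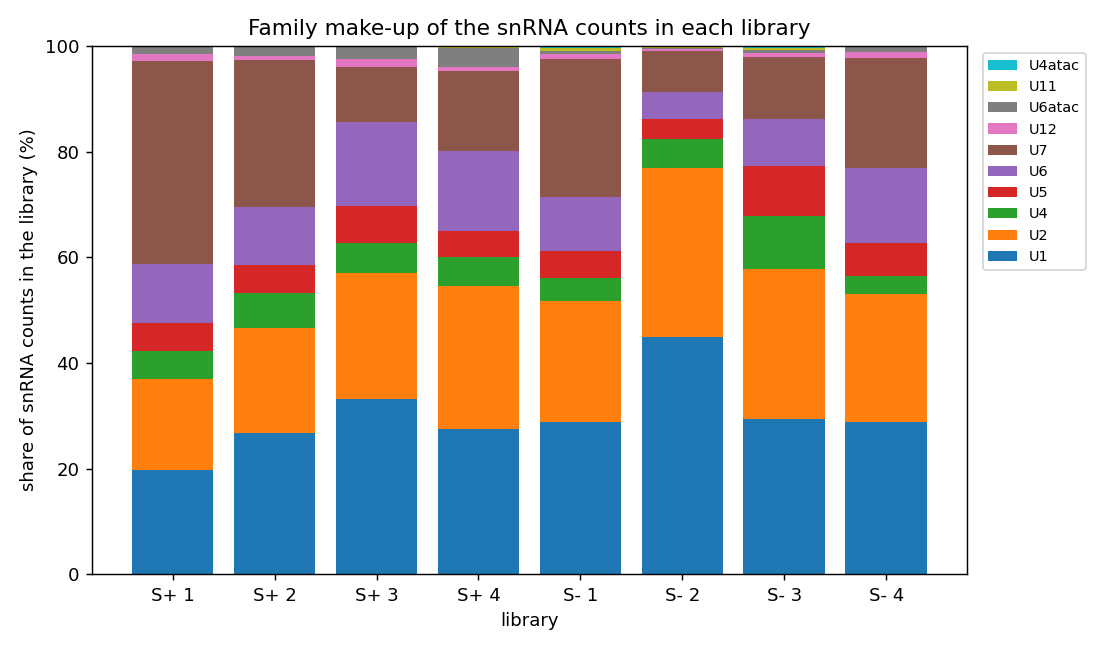
Share of the snRNA counts of each library (vertical axis, %) that fell on each snRNA family, with S+ libraries left and S- libraries right. U1 holds from 19.8% (S+ 1) to 44.9% (S- 2), and U7 from 7.74% (S- 2) to 38.3% (S+ 1).

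The families moved in step to different degrees. The ratio of U1 to U2 counts stayed between 1.01 and 1.40 in all 8 libraries, S- 2 included (1.40), and log2 CPM of the 2 families had a Pearson coefficient of 0.981 over the 8 libraries and 0.930 without S- 2. The ratio of U4 to U6 counts ranged more widely, at 0.458, 0.616, 0.353 and 0.358 in S+ larvae, and 0.406, 1.08, 1.14 and 0.237 in S- larvae. The coefficient of U1 was 0.820 with U4, 0.810 with U5 and 0.646 with U6, and 0.574, 0.703 and 0.534 without S- 2. With U6atac it was -0.42, and 0.154 without S- 2. These coefficients are descriptions over 8 libraries that share their scaling.

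U7 followed neither the spliceosomal snRNAs nor the groups. It had 528, 284, 157 and 205 counts in S+ larvae, against 326, 391, 172 and 166 in S- larvae. S+ 1 was the highest and S+ 3 the lowest in CPM, at 129.9 and 30.1, so the S+ range enclosed the S- range of 43.6 to 88.9 CPM. The log2 fold change of its gene was -0.06 (95% interval -1.02 to 0.89, limma adjusted p = 0.960), and 0.078 without S- 2. Its Pearson coefficient with U1 over the 8 libraries was 0.115, and -0.45 without S- 2. With 2229 counts it was the member with the most reads.

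Over all members, the snRNA counts summed to 315 ± 63.3 CPM in S+ larvae and 517 ± 400.3 CPM in S- larvae (SD, n = 4 each), a difference of -0.47 in mean log2 CPM. Without S- 2 the S- mean was 319 CPM and the difference -0.02. The highest library was 4.54 times the lowest for snRNA members and 1.24 times for snoRNA genes, the nucleolar guide RNAs. LincRNA genes ranged more widely, between 576 and 8642 CPM. The ratio was 4.63 times for mitochondrial rRNA, 3.70 times for miscellaneous RNA, 2.92 times for rRNA and 1.83 times for protein-coding genes. Without S- 2 it was 1.60 times for snRNA members and 1.24 times for snoRNA, against 7.09 times for lincRNA, 4.63 times for mitochondrial rRNA, 2.81 times for miscellaneous RNA, 2.92 times for rRNA and 1.51 times for protein-coding genes. For scaRNA genes the ratio was 2.98 times, and 2.22 times without S- 2. For mitochondrial tRNA it was 2.37 times with or without S- 2. In whole larvae, fewer cells of a type and less RNA per cell cannot be told apart.

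The mRNAs of the proteins that bind snRNAs could not be followed here. Of 53 such genes listed, covering Sm and LSm proteins, U1 and U2 proteins, proteins of the U4/U6 and U5 complex, minor spliceosome proteins and assembly factors, 50 were in the table. They had 223 counts in all and a median of 2, 12 had no count, and 0 passed the filter. The highest was sf3b1, the branch point protein of U2, with 45 counts.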

How the data were processed

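Small RNA libraries of 4 S+ and 4 S- pools of larvae were analysed. The authors trimmed reads with Trim Galore 0.6.6 (minimum length 16 bases), mapped them to GRCz11 with STAR 2.7.8a under ENCODE small RNA settings and quantified Ensembl release 104 genes with RSEM 1.3.0. The deposited values are estimated counts per gene without normalization, and all are whole numbers. No deduplication is described, although the methods name molecular identifiers and a ribosomal RNA depletion kit. Biotype, identifier and clone name came from the table, families from an Ensembl symbol table.

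The main test was limma 3.58.1 with voom in R 4.3.3, on TMM factors and filterByExpr (minimum count 10) from edgeR 4.0.16, with Benjamini-Hochberg adjustment over all genes tested. DESeq2 1.42.0 was an alternative. The fit was also run on simulated data, but no outcome is given here, so nothing about its accuracy at low counts follows from that. Family sums were fitted in the same way and compared on log2 CPM with a prior of 0.5 counts. Named are each family's highest gene, the 10 tested snRNA genes with most counts and the 5 with the smallest p. CR356223.4, CR356223.3, CU469093.1 and CU672220.1 fall outside this rule and were named after their values were seen. Members and lists were chosen with earlier results of these data known. Each replicate is a separate crossing.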

Additional observations from a re-analysis of the deposited data

Results flagged for a closer look

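Groups of 4 libraries were examined for a library whose gap to its nearest neighbour exceeds 0.829 of the range of its group, the 95% limit of Dixon's test. Of 56 groups (snRNA sums and named genes, many sharing reads), 12 had such a library. Chance gives about 5% for groups chosen without regard to their values. Most genes here were named by counts or p values that include S- 2, so the 12 of 56 cannot be judged against 5%. In 11 of them it was S- 2, the highest of its group each time.

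Summed U1 stood at 499.6 CPM in S- 2, against 70.5 to 109 CPM in the other S- libraries, summed U2 at 356 CPM against 59.5 to 106, summed U6 at 57.2 CPM against 32.9 to 34.9, and all snRNA members at 1112 CPM against 245 to 373. Among single genes, the U2 gene CR932438.2 stood at 138 CPM in S- 2, the U6 gene CABZ01071845.1 at 52.8 CPM, the U1 genes FP102120.3, FP102120.2 and CU695141.1 at 94.4 CPM each, the U1 gene AL953856.5 at 53.7 CPM and the U1 gene CABZ01031673.1 at 17.2 CPM. In S+ 2, the U2 gene AL929108.1 stood low, at 13.4 CPM against 26.1 to 27.2 CPM in the other S+ libraries.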

How the results depend on the processing

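Limma called 2 of 651 genes tested, 0 of 21 snRNA genes and 0 of 8 families. Over the same 651 genes, DESeq2 called 30, library size alone 1, DESeq2 size factors 0 and the replicate block 9. Without a filter (at least 1 count) 79 were called, but of 18338 genes tested. With each library left out 0 to 3 were called, of 671 to 720 genes tested. Among snRNA genes DESeq2 called 1 of 21 (AL928952.1), against 4.61% of all genes, and the fit without a filter called 2 of 152. DESeq2 called 1 of 8 families, U6atac, against 4.7% of all rows. The other alternatives, leaving out each library included, gave 0. The 2 genes without a filter were CR356223.3 (log2 fold change -2.89, limma adjusted p = 0.0152) and BX005336.4 (-2.68, limma adjusted p = 3.5e-06). The standard error of BX005336.4 was 0.443 there and 1.37 with the filter, so that adjusted p understates the spread between libraries.

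Uncalled values near 0 changed sign. For U7, CR388102.3 gave 0.093 with edgeR, 0.093 with DESeq2 and 0.018 with the replicate block, its row in the fit on sums 0.095, 0.089 and 0.012, and its sum 0.18 as a share of counts outside miRNA genes and 0.45 as a share of snRNA counts. U12 gave 0.18 and 0.43 on these shares, U4 0.11 as a share of snRNA counts, and U6 -0.054 over genes with at least 50 counts. The shares of snRNA counts were chosen after seeing the data. With each library left out, log2 fold changes ran from -0.43 to 0.32 for CR388102.3, -0.24 to 0.16 for CABZ01071845.1, -0.80 to 0.23 for BX571719.2, -0.74 to 0.24 for AL953856.5 and -0.20 to 0.23 for ENSDARG00000080745. In the fit on sums they ran from -0.89 to 0.059 for U4, -0.11 to 0.23 for U6, -0.41 to 0.32 for U7 and -0.20 to 0.20 for U12, and for log2 CPM of the sums from -0.85 to 0.11 for U4, -0.11 to 0.27 for U6, -0.37 to 0.33 for U7 and -0.17 to 0.22 for U12. What caused them was not tested.

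No snRNA gene was called with the replicate block, where AL928952.1 stood at 1.68 (limma adjusted p = 0.126); exact sign flips over the 4 number pairs cannot go below p = 0.125, which summed U6atac reached (1.61). Whether the numbers pair the libraries is not stated, and 4 correlations cannot decide it. Deviations of libraries that share a number correlated at 0.156, -0.159, 0.248 and 0.029. Their mean was 0.069, against -0.022 for libraries of different numbers, and 2 of 4 S+ libraries correlated best with their own number. Over 10 alternatives that used all libraries, the block included, AL928952.1 stood at 1.46 to 1.79, with adjusted p from 0.0297 (DESeq2) to 0.315 (limma). Filters that use no groups gave 1.55 with at least 1 count (limma adjusted p = 0.239) and 1.54 with at least 10 summed counts (limma adjusted p = 0.315). The other alternatives kept the filter that this gene passed only through its S+ libraries, so they are no separate support. With at least 10 counts in every library it was not tested. Depth limits U11 and U4atac, with 11 counts or fewer in each library. It also limits the S- level of U6atac, with 9 counts or fewer in each S- library.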
